A study of Homo sapiens with 48 samples.

Results

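The genes described here are the insulin-like growth factor 2 (IGF2) axis: the ligand IGF2, the receptors IGF1R, IGF2R and INSR, the receptor substrates IRS1 and IRS2, and the binding proteins IGFBP2, IGFBP3, IGFBP4 and IGFBP5. These 10 genes were chosen by name among the 19923 gene names of the count tables, and each had 1 row. The libraries were poly(A) RNA-seq of the human neuroblastoma lines Kelly and NGP, both labelled wild type and MYCN-amplified. Each line had received STM2457 at 8 µM, which inhibits METTL3, the methyltransferase that writes m6A on RNA, or its solvent DMSO, for 3 or 6 days. Actinomycin D, which blocks transcription, was then added at 10 µg/ml and the RNA was taken after 0, 3 or 6 h. This gave 24 groups of 2 libraries, 48 in all, so a result speaks of these lines in culture, and the labels do not say whether the 2 libraries of a group came from separate cultures. If they did not, the p-values measure only the spread between these samples, which may be technical.

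IGF2 is a secreted growth factor that signals mainly by binding IGF1R and, in one of its isoforms, INSR, both of which are receptor tyrosine kinases. The activated receptors phosphorylate IRS1 and IRS2, which carry the signal to PI3K and AKT. IGF2R, also known as the cation-independent mannose-6-phosphate receptor, takes IGF2 up for degradation, and the IGFBP proteins bind IGFs outside the cell and alter their access to receptors. IGF2 is an imprinted gene that is active in many embryonal tumours, and m6A is known to influence the stability of RNA.

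METTL3 places m6A within a short consensus, of which GGACT is the most common form in DNA letters. The letters GGACT were searched in the exons of each gene on the transcribed strand only, and a match describes the sequence and is not evidence of a modified base. Of 19896 genes searched, 92.4% held at least 1 match, with a median of 0.917 matches per kb of exon. IGF2 held 5 matches (0.799 per kb), IRS2 held 7 (0.858), IGFBP3 held 2 (0.438) and IGFBP5 held 9 (1.39). IGF2R held 16 (0.897), IGF1R 11 (0.789), INSR 9 (0.831), IRS1 9 (0.904), IGFBP2 3 (0.633) and IGFBP4 4 (1.81). Per kb, IGFBP4 and IGFBP5 lay above the median of all genes and the other 8 below it.

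The match nearest to the stop codon of the reference transcript is shown for the 5 genes that were called under STM2457 in at least 1 comparison. Only matches whose whole window lies within 1 exon of that transcript were considered, so a nearer match close to an exon end may exist. Each window is 25 bases from the GRCh38 (hg38) reference, written 5′ to 3′ on the transcribed strand, with the GGACT letters in capitals.
IGF2: cttctcccttGGACTttgagtcaaa
IGF2R: acttcagctgGGACTcccgggctgc
IRS2: aaacatctgtGGACTctgttagatg
IGFBP3: tactgcttggGGACTattggagaaa
IGFBP5: acgttgacggGGACTttcagtgcca

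The IGF2 window (chr11:2132449-2132473, minus strand) lies in the 3′ UTR, 528 bases past the stop codon. The IRS2 window (chr13:109756151-109756175, minus strand) and the IGFBP3 window (chr7:45913261-45913285, minus strand) are also in 3′ UTRs, 143 and 579 bases past the stop codon. The IGFBP5 window (chr2:216676779-216676803, minus strand) is in the coding sequence, 38 bases before the stop codon, and the IGF2R window (chr6:160089133-160089157, plus strand) is in the coding sequence, 1115 bases before it. Thus 3 of the 5 windows were in a 3′ UTR and 2 in coding sequence. The counts are per gene and cannot be divided between these windows and the rest of a transcript.

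Fragments assigned to genes numbered 11139550 to 21942238 per library, and 13665 to 16043 genes had at least 1 fragment. Levels below are CPM, the usual depth-normalized counts, on library sizes scaled by TMM, a method that sets the typical gene to no change. Differences are log2 values ± SE from edgeR's quasi-likelihood test, and a gene is called where the Benjamini-Hochberg adjusted p over all tested genes is under 0.05. All 10 genes were tested in each fit, among 16759 genes in Kelly, 14661 in NGP and 17343 in the joint fit of both lines. Noradrenergic neuroblastoma markers summed to 8686 to 12793 CPM in Kelly and 2114 to 3716 in NGP, where TH, the first enzyme of catecholamine synthesis, had a median of 8.5 fragments. Schwann cell markers summed to at most 6.25 CPM in a library and leukocyte markers to at most 11.1. Mesenchymal markers, most of them FN1, PDGFRB and COL1A1 by level, summed to 117 to 296 CPM in Kelly and 212 to 369 in NGP.

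IGF2 was the most abundant of the 10 per kb of exon in both lines. Over the 4 DMSO libraries of a line before actinomycin D, the mean level of IGF2 was 152 ± 25.9 CPM per kb in Kelly (SD, n = 4, range 129 to 179) and 181 ± 74.5 in NGP (range 115 to 263). In Kelly it was followed by IGFBP2 (58.2 ± 4.96), IGFBP4 (22.8 ± 1.53), IGF1R (13.0 ± 0.932) and IGF2R (10.0 ± 0.455), whose ranges did not overlap. IRS2 (4.85 ± 0.36) and IGFBP5 (4.73 ± 1.90) overlapped each other, and IGFBP5 overlapped IRS1 (2.67 ± 0.566). IGFBP3 (0.267 ± 0.187) and INSR (0.0102 ± 0.0168) were the lowest. Kelly cells thus had IGF1R and IGF2R transcripts and almost none of INSR.

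In NGP the order after IGF2 was IGFBP5 (57.1 ± 13.4 CPM per kb), IGFBP2 (57.0 ± 5.56), IGFBP4 (21.6 ± 5.10) and IGF1R (18.3 ± 1.23). The ranges of IGFBP5 and IGFBP2 overlapped, as did those of IGFBP4 and IGF1R. IRS2 (8.98 ± 3.30), IGF2R (8.48 ± 0.437) and INSR (8.38 ± 0.994) overlapped one another, and IGFBP3 (2.74 ± 1.87) overlapped IRS1 (1.79 ± 0.222). NGP thus carried INSR at a level near that of IGF2R, and IGFBP5 near that of IGFBP2.

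**Figure D1:**
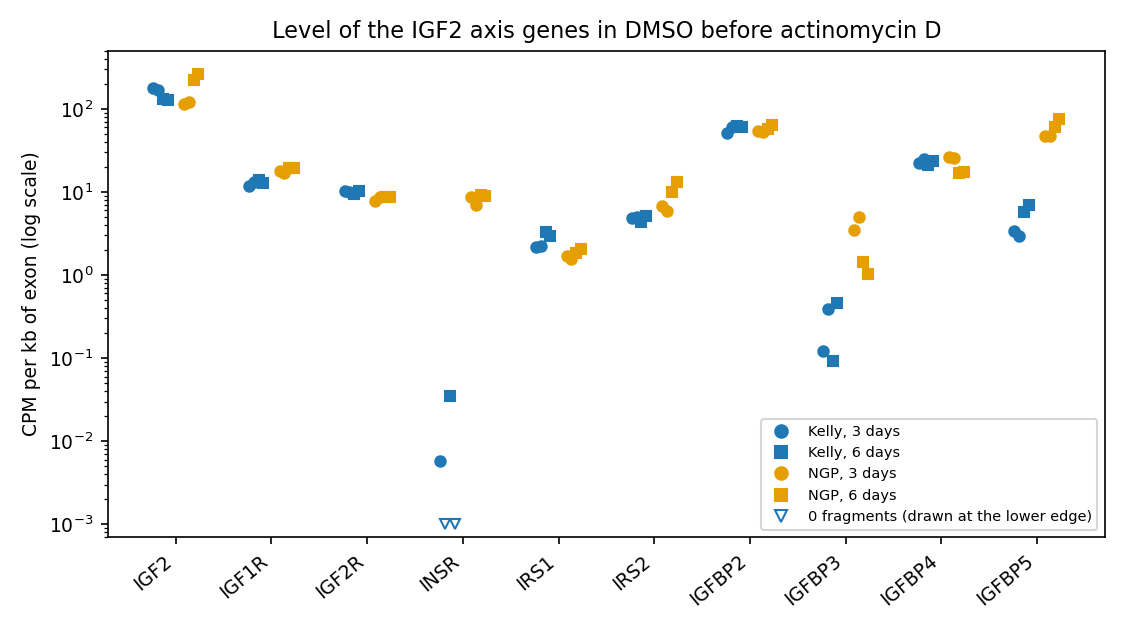
Level of each gene in the DMSO libraries before actinomycin D, in CPM per kb of exon on a log axis. Points are single libraries (2 per line and duration). IGF2 lies highest in both lines, INSR and IGFBP5 lie far apart between the lines, and Kelly libraries without an INSR fragment are drawn at the lower edge.

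IGF2 lies on chromosome 11 (GRCh38, positions 2129112 to 2141238, minus strand) and its exons form 7 blocks of 6259 bases in the annotation used for counting. Of these, 4424 bases (70.7%) are shared on the same strand with 2 other names, AC132217.2 and the read-through gene INS-IGF2. The shared bases are blocks 1 to 3 from the 3′ end, all but 9 of their bases, and include the window shown above. The 1835 bases of IGF2 alone lie almost all in blocks 4 to 7, the leader exons. By default, featureCounts leaves a fragment that overlaps more than 1 gene unassigned, and the recorded command names no option that changes this. INS-IGF2 had 0 fragments in all 48 libraries, and AC132217.2 had 3 in all Kelly libraries together and 12 in 1 NGP library. All 1826 exon bases of INS-IGF2 are shared with other names, as are 5006 of the 5584 of AC132217.2. Under that default no fragment could be assigned to INS-IGF2, so its count would not measure its level. IGF2 itself had 7192 to 32378 fragments per Kelly library and 7166 to 68194 per NGP library. How its fragments divide over the 7 blocks is not given in the counts. The per-kb level above divides by all 6259 bases, so it is too low if fragments in shared bases were left unassigned. The level and the changes of IGF2 would then rest mostly on fragments that reach the 1835 bases of IGF2 alone. Adding the fragments of both names to IGF2 changed no call in the 22 comparisons. Both names held too few fragments for this to change a call, and it cannot bring back fragments left unassigned.

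Between the lines, the largest differences in DMSO before actinomycin D were in INSR, IGFBP5 and IGFBP3. INSR (chromosome 19, 7112255 to 7294414) had 1 and 0 fragments in the 3-day and 8 and 0 in the 6-day Kelly libraries, against 2221 and 3336 over both NGP libraries of each duration. The ratio, NGP over Kelly, was 2646 at 3 days (95% exact interval 474 to 104540) and 457 at 6 days (232 to 1059), intervals that cover counting error only. Both INSR differences were called. Across all 24 Kelly libraries INSR summed to 303 fragments, with 7 libraries at 0, a median of 2 and a highest value of 63. In NGP it ran from 1029 to 2489 fragments per library, so no NGP library overlapped a Kelly one. Of its neighbours on chromosome 19, ZNF557 and ARHGEF18 were counted in all 24 Kelly libraries, with medians of 97.5 and 167.5 fragments against 202.5 and 124 in NGP. AC119396.1, which lies between INSR and ARHGEF18, had a median of 0 in Kelly (13 of 24 libraries at 0) and 6.5 in NGP, and PEX11G was at 0 in 6 Kelly and 13 NGP libraries.

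IGFBP5 (chromosome 2, 216672105 to 216695549) stood at 21.8 and 18.96 CPM in Kelly and 301 and 304 in NGP at 3 days, and at 37.1 and 44.6 against 388 and 484 at 6 days. NGP was higher by 3.93 ± 0.133 at 3 days (adjusted p = 1.6e-37) and 3.46 ± 0.126 at 6 days (1.5e-35). IGFBP3 (chromosome 7, 45912245 to 45921874) was at 0.556 and 1.79 CPM in Kelly and 15.7 and 23.1 in NGP at 3 days, a difference of 4.10 ± 0.717 (2.7e-06). At 6 days it was at 0.426 and 2.11 in Kelly and 6.62 and 4.64 in NGP, a difference of 2.26 ± 0.696 (0.00757). Groups did not overlap in any of these 4 comparisons, but the IGFBP3 call at 6 days was lost without Kelly DMSO replicate 1 (1.46, 0.0803), rose to 3.75 without replicate 2, and was not made by DESeq2 (2.20, 0.121).

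IGF1R (chromosome 15, 98648539 to 98964530) was also higher in NGP, by 0.51 ± 0.090 at 3 days (163 and 184 CPM in Kelly, 247 and 236 in NGP) and by 0.57 ± 0.089 at 6 days (195 and 180 against 267 and 272). IGF2 changed sides with the duration. It was lower in NGP by 0.52 at 3 days (-0.52 ± 0.069, adjusted p = 3.2e-09) and higher by 0.95 ± 0.069 at 6 days (2.6e-19). IRS2 (chromosome 13, 109752695 to 109786583) was higher in NGP at 6 days (1.33 ± 0.270, 4.5e-05), and its value at 3 days was 0.41 ± 0.269. IGF2R (chromosome 6, 159969099 to 160113507) was slightly lower in NGP at 3 days (-0.26 ± 0.103, 0.0479). That IGF2R call was lost without Kelly replicate 1 (-0.24) or 2 (-0.28) or NGP replicate 1 (-0.18), and under 6 of the 8 other settings run for it (adjusted p from 0.0457 to 0.272 over the 8), with a value of 0.15 when scaled to the ERCC spike-ins described below.

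In all, 4 members were called higher and 2 lower in NGP at 3 days, where 14% of the 17343 genes tested were called higher and 16% lower. At 6 days 6 were called higher and 0 lower, against 15.7% and 15.9% of all genes. IRS1, IGFBP2 and IGFBP4 were not called at either duration, with differences from -0.64 (IRS1 at 6 days) to 0.20 (IGFBP4 at 3 days). The median over the 10 was 0.30 at 3 days and 0.76 at 6 days, beside 0 for all genes at both. With ERCC scaling, 7 members were called higher and 0 lower at 3 days, where IGF2 was no longer called (-0.11), and 6 higher and 3 lower at 6 days. On that scale 6183 of the 17343 genes were called at 3 days and 5617 at 6 days. The typical gene moved by 0.27 and -0.13. With library size alone 6 members were higher and 1 lower at 6 days, and with RLE size factors 4 were higher and 1 lower at 3 days.

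STM2457 was compared with DMSO at 0 h of actinomycin D in each line and duration, which asks how the steady level of each transcript differed after METTL3 inhibition. IGF2 was lower in all 4 comparisons, and it was the only member called in more than 1 of them. In NGP, IGFBP3 was higher and IGFBP5 lower at 3 days, and IRS2 was lower at 6 days. In Kelly, IGF2R was lower at 6 days. Since these are bulk samples, fewer cells with a transcript and less of it per cell cannot be told apart.

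In Kelly at 3 days IGF2 stood at 1118 and 1063 CPM in DMSO and at 564 and 480 in STM2457. At 6 days it was at 817 and 809 in DMSO and 588 and 605 in STM2457. Every STM2457 library lay below every DMSO library of its duration. The differences were -1.06 ± 0.059 at 3 days (adjusted p = 3.2e-39), a level 0.479 times that in DMSO, and -0.45 ± 0.059 at 6 days (4.1e-10), 0.734 times. The reduction was smaller at 6 than at 3 days by a test of the difference itself (0.62 ± 0.083, 7.5e-09). Among all Kelly genes, 0.788% were called for this difference, and of the 10 members IGF2 alone was.

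In NGP IGF2 was at 719 and 758 CPM in DMSO and 447 and 461 in STM2457 at 3 days. At 6 days it was at 1403 and 1649 in DMSO and at 862 and 887 in STM2457. Again the groups did not overlap. The differences were -0.70 ± 0.057 (1.0e-15) and -0.80 ± 0.056 (2.4e-20), levels 0.615 and 0.573 times those in DMSO. The 2 durations in NGP did not differ by the same test (-0.10 ± 0.080, adjusted p = 0.819).

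Under the 9 alternative settings run for each of these values, IGF2 remained lower and called, from -1.07 to -0.66 in Kelly at 3 days and -0.70 to -0.45 at 6 days. The corresponding ranges were -0.72 to -0.60 and -0.84 to -0.79 in NGP. The ends at -0.66 and -0.70 in Kelly came from scaling to the ERCC spike-ins, synthetic RNAs present in each library, under which the typical gene shifted by 0.38 at 3 days and -0.21 at 6 days. With that scaling the difference between the durations in Kelly was -0.04 and was not called (adjusted p = 0.877).

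**Figure D2:**
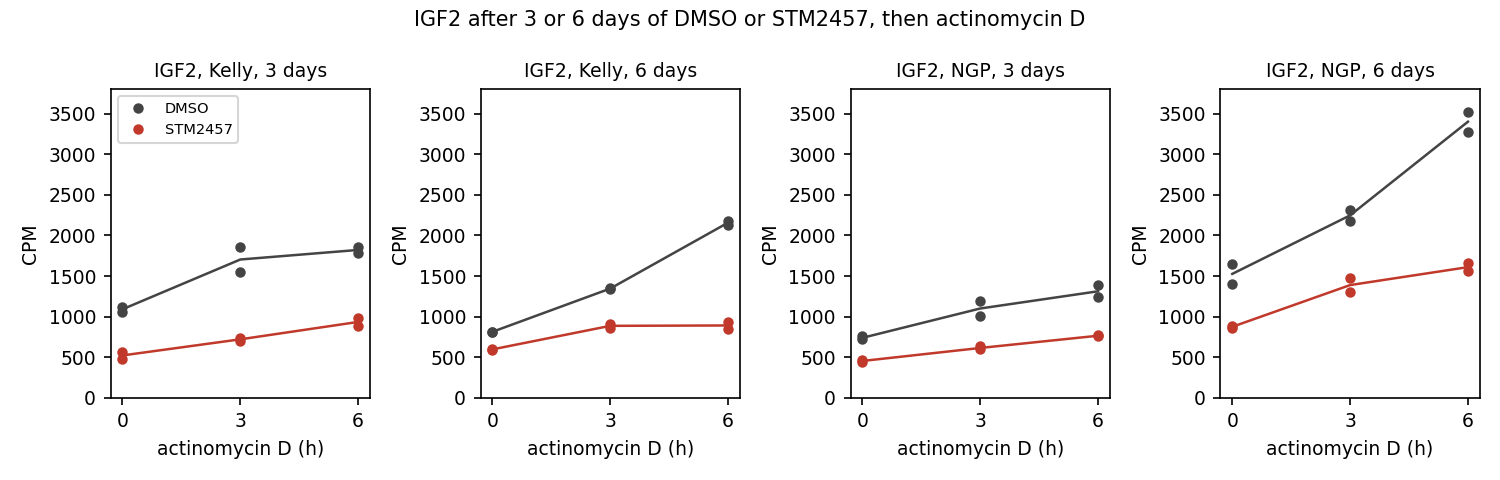
IGF2 level in CPM against hours of actinomycin D, in 4 panels by line and duration. Points are single libraries and lines join the means of 2. At every time and in every panel both STM2457 libraries lie below both DMSO libraries.

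Of the receptors, IGF2R was at 167 and 183 CPM in DMSO and 143 and 130 in STM2457 in Kelly at 6 days, without overlap. The difference was -0.36 ± 0.105 (adjusted p = 0.0261), and it was lost without DMSO replicate 2 (-0.31, 0.343), without STM2457 replicate 2 (-0.31, 0.332) and with limma-voom (-0.35, 0.0528). In NGP at 6 days IGF2R was at 157 and 153 CPM in DMSO and 124 and 129 in STM2457, a difference of -0.29 ± 0.100 that missed the threshold (0.0526). IGF1R differed by 0.03 to 0.26 over the 4 comparisons and INSR in NGP by 0.07 ± 0.127 and -0.06 ± 0.125, and none of these was called. INSR in Kelly was at 16 and 0 fragments in STM2457 against 1 and 0 in DMSO at 3 days, and at 2 and 0 against 8 and 0 at 6 days, which is too few for a fold change.

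Of the substrates, IRS2 in NGP at 6 days was at 81.5 and 108 CPM in DMSO and at 47.6 and 45.3 in STM2457. Both STM2457 libraries lay below both DMSO libraries, and the difference was -1.02 ± 0.192 (adjusted p = 4.4e-05). At 3 days the DMSO libraries were at 55.2 and 48.6 CPM and the STM2457 libraries at 51.2 and 53.9, a difference of 0.02 ± 0.192. The difference between the durations was itself called (-1.04 ± 0.271, 0.0127), though not without DMSO replicate 2 of 3 days (-0.95) or of 6 days (-0.83). In Kelly the IRS2 values were 0.29 ± 0.277 and 0.28 ± 0.277, neither called. IRS1 (chromosome 2, 226731317 to 226799759) differed by -0.16 to 0.23 and was not called in any comparison.

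Of the binding proteins, IGFBP3 in NGP at 3 days went from 15.7 and 23.1 CPM in DMSO to 69.3 and 76.3 in STM2457. This was an increase of 1.90 ± 0.294 (adjusted p = 2.4e-06), a level 3.74 times that in DMSO, with no overlap between the groups. At 6 days IGFBP3 was low in both treatments, at 6.62 and 4.64 against 7.44 and 7.03 CPM (0.36 ± 0.321). The difference between the durations was -1.55 ± 0.432 (0.0259). It was lost without DMSO replicate 1 of 3 days (-1.30) or of 6 days (-1.27), with DESeq2 (-1.53, 0.273) and with limma-voom (-1.55, 0.153). In Kelly IGFBP3 had at most 48 fragments per library, and its differences of 0.38 ± 1.71 and 0.52 ± 1.70 were not detectable at this depth.

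IGFBP5 in NGP at 3 days was at 301 and 304 CPM in DMSO and at 200 and 197 in STM2457, a difference of -0.61 ± 0.075 (adjusted p = 5.4e-09) with no overlap. At 6 days the DMSO libraries were at 388 and 484 CPM and the STM2457 libraries at 388 and 364, a difference of -0.21 ± 0.074 (0.0554). In Kelly, where IGFBP5 was far lower, its values were 0.36 ± 0.227 and 0.34 ± 0.220, neither called. The 3-day effect differed between the lines by test, at -0.97 ± 0.174 (0.00114), NGP less Kelly, though limma-voom did not call it (-0.97, 0.526). The 2 durations in NGP differed by 0.40 ± 0.105 (0.0150). That was lost without NGP STM2457 replicate 2 of 3 days (0.38), and without DMSO replicate 1 (0.24) or STM2457 replicate 1 (0.35) of 6 days.

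IGFBP2 (chromosome 2, 216632828 to 216664436) and IGFBP4 (chromosome 17, 40443450 to 40457725) were not called in any of the 4 comparisons. IGFBP2 differed by -0.17 to 0.04 and IGFBP4 by -0.07 to 0.23.

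**Figure D3:**
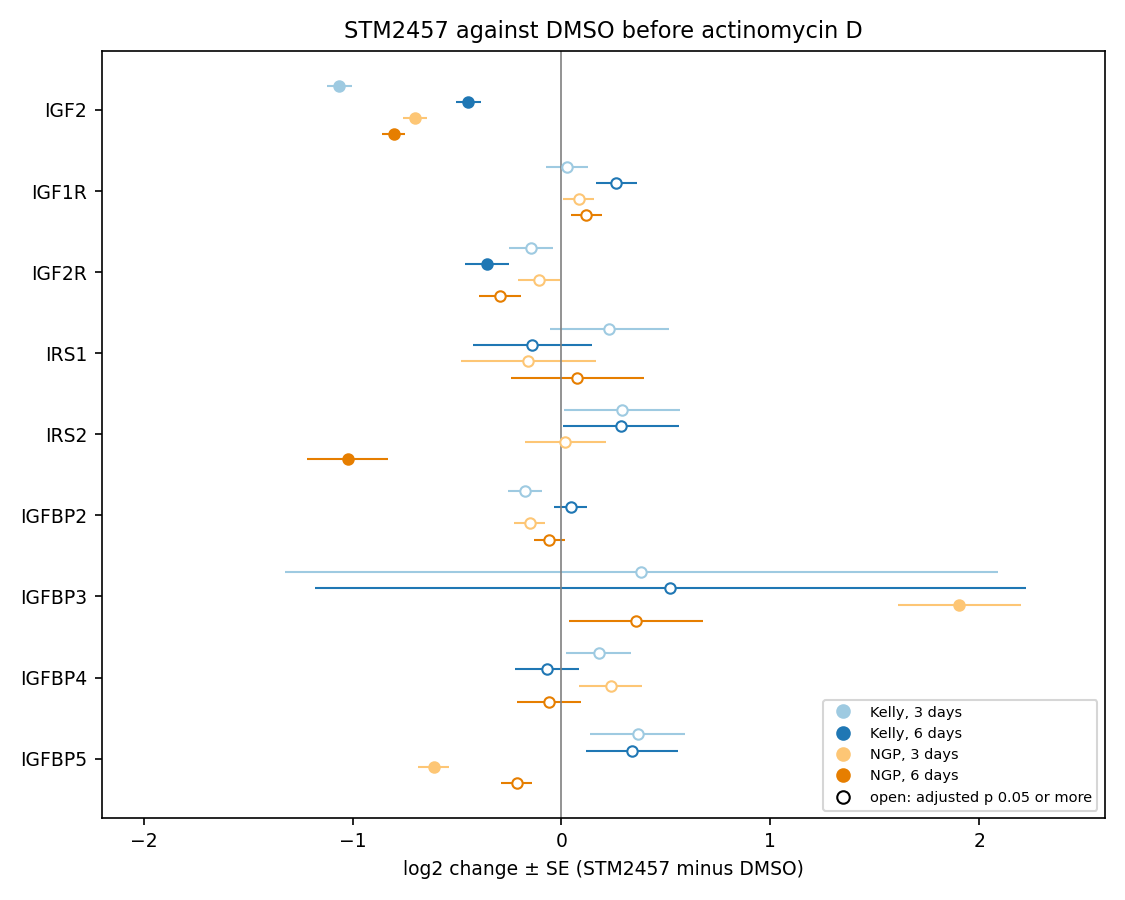
Log2 difference, STM2457 minus DMSO, ± SE before actinomycin D for 9 of the genes, with 1 colour per line and duration. Filled points passed an adjusted p of 0.05. IGF2 is filled and negative in all 4 comparisons. INSR is left out because Kelly had too few fragments.

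**Figure D4:**
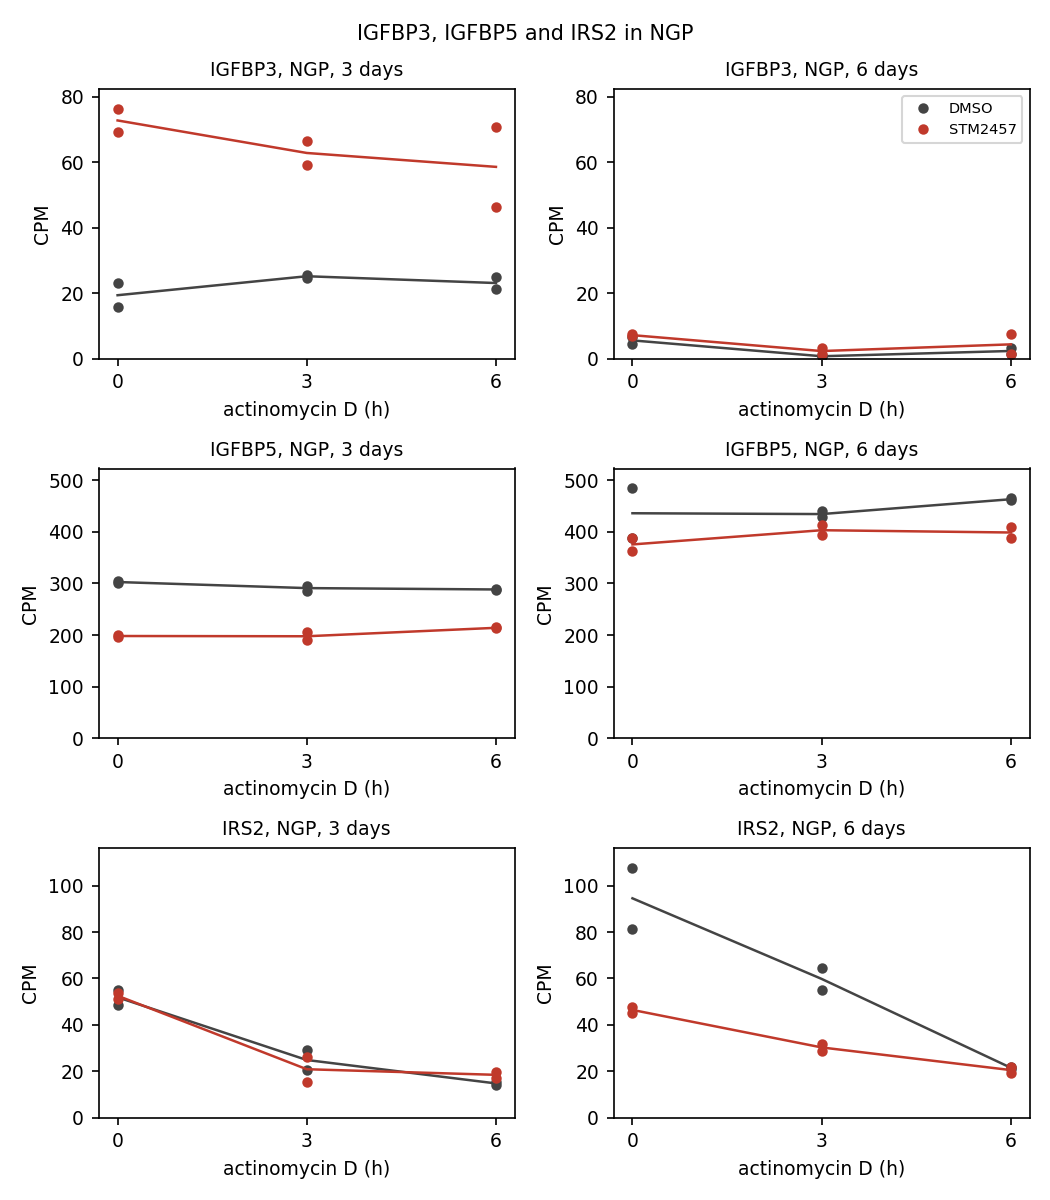
Levels of IGFBP3, IGFBP5 and IRS2 in NGP in CPM against hours of actinomycin D, at 3 and 6 days. Points are single libraries and lines join the means of 2. The treatments are apart in IGFBP3 and IGFBP5 at 3 days, and in IRS2 at 6 days they are apart at 0 and 3 h and close at 6 h.

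In Kelly at 3 days 1 of the 10 members was called lower and 0 higher, where 1.1% of all genes tested were called lower and 0.579% higher. At 6 days 2 were lower and 0 higher, against 1.26% and 2.7% of all genes. In NGP at 3 days 2 were lower and 1 higher, against 2.45% and 1.25%, and at 6 days 2 were lower and 0 higher, against 3.55% and 4.45%. With edgeR at an unadjusted p under 0.05 the counts of members in either direction were 2, 3, 4 and 4 in this order. The share of all genes at that threshold was not counted, so these counts have no background beside them. The median difference over the 10 was 0.20, -0.01, -0.04 and -0.06, beside 0, 0, 0 and 0.02 for all genes. With ERCC scaling 4 were higher and 1 lower in Kelly at 3 days (IGF1R, IGFBP2, IGFBP4 and IGFBP5 against IGF2), and 0 higher and 4 lower in NGP at 6 days (IGF2R and IGFBP5 joined IGF2 and IRS2). On that scale 3727 of 16759 genes were called in Kelly at 3 days and 1042 of 14661 in NGP at 6 days. The typical gene moved by 0.38 and -0.02.

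The test of whether the effect differed between the lines called 1 member at 3 days (IGFBP5) and 0 at 6 days, where it called 0.161% and 1.75% of all genes. At 6 days 3 members had an unadjusted p under 0.05 with edgeR, a threshold for which the share of all genes was not counted. They were IGF2 (-0.34 ± 0.098, adjusted p = 0.0518), IRS2 (-1.29 ± 0.378, 0.0584) and IGFBP5 (-0.53 ± 0.165, 0.0863). At 6 days limma-voom called 1 of them (IRS2) and DESeq2 called 0, while a fit on the 16 libraries at 0 h and a fit without a filter on low counts each called all 3. At 3 days the value for IGF2 was 0.36 ± 0.098 (0.144), and both of these fits called it (0.37 and 0.36). A difference between the lines in the response of IGF2 thus depended on these settings at both durations. In NGP 2.8% of all genes were called for the difference between the durations, and 3 of the 10 members were: IGFBP5, IGFBP3 and IRS2. With ERCC scaling IGFBP5 was not among these (0.26), and in Kelly 0 members were higher and 5 lower for this difference. On that scale the typical gene in Kelly moved by -0.62 for it, and 4009 of 16759 genes were called.

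Other genes of the pathway were taken from a list of 42, of which 38 were tested in Kelly and 37 in NGP. Under STM2457 at 0 h 3 of them were higher and 0 lower in Kelly at 3 days (0.579% and 1.1% of all genes), and 2 and 0 at 6 days (2.7% and 1.26%). In NGP 1 was higher and 1 lower at 3 days (1.25% and 2.45% of all genes), and 1 was higher and 2 lower at 6 days (4.45% and 3.55%). Their median difference was between -0.03 and 0.08 in the 4 comparisons.

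SHC1, an adaptor of the IGF and insulin receptors, was higher at 3 days in both lines (0.47 ± 0.095 in Kelly and 0.54 ± 0.143 in NGP). IGF2BP1, which binds IGF2 mRNA and has been described as a reader of m6A, was higher at 6 days in both lines (0.20 ± 0.057 and 0.17 ± 0.052). In NGP STC2, a secreted inhibitor of the IGFBP protease PAPPA, was lower at both durations (-0.80 ± 0.196 and -2.39 ± 0.197). EIF4EBP1, a translation repressor controlled by mTOR, was lower there at 6 days (-0.65 ± 0.084). The alternative settings were not run for the partner genes, and the shift of the typical gene under ERCC scaling in Kelly at 6 days (-0.21) is as large as the IGF2BP1 value there.

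Actinomycin D shows how fast a transcript was lost once transcription was blocked. Under TMM a transcript called higher was one lost more slowly than the typical gene, which does not show that its amount increased. On this scale the 10 members fell into 3 sets over 6 h. IGF2 and IGFBP2 were called higher in all 8 comparisons (2 lines, 2 durations, 2 treatments), IRS2 was called lower in all 8, and the other members were called in some or none. With ERCC scaling, given after the counts below, the calls of IRS2 remained while most of those of IGF2 and IGFBP2 did not.

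IGF2 went from 1118 and 1063 CPM at 0 h to 1852 and 1555 at 3 h and 1855 and 1788 at 6 h in Kelly in DMSO at 3 days. At 6 days in DMSO it went from 817 and 809 to 1338 and 1353 and then to 2132 and 2183. In NGP in DMSO it went from 719 and 758 to 1012 and 1188 and then 1237 and 1387 at 3 days, and from 1403 and 1649 to 2182 and 2313 and then 3280 and 3522 at 6 days. In each of these courses both 6 h libraries lay above both 0 h libraries. For the 6 h interval in DMSO, Kelly changed by 0.74 ± 0.059 (3 days) and 1.41 ± 0.059 (6 days), and NGP by 0.83 ± 0.057 and 1.16 ± 0.057.

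In STM2457 the IGF2 libraries of Kelly went from 564 and 480 to 701 and 740 and then 980 and 889 CPM at 3 days, and from 588 and 605 to 915 and 858 and then 938 and 844 at 6 days. In NGP they went from 447 and 461 to 596 and 633 and then 758 and 772 at 3 days. At 6 days they went from 862 and 887 to 1306 and 1471 and then 1558 and 1662. The changes over 6 h were 0.84 ± 0.059 and 0.58 ± 0.059 in Kelly and 0.75 ± 0.057 and 0.88 ± 0.057 in NGP, all called, with adjusted p of at most 3.7e-17 over the 8 comparisons.

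The decay difference is the change over 6 h in STM2457 less that in DMSO, so a negative value means a faster relative loss under STM2457. It shares its 0 h libraries with the STM2457 effect above, so the values cannot serve as separate evidence. For IGF2 in Kelly it was -0.83 ± 0.083 at 6 days (adjusted p = 1.8e-15) and 0.10 ± 0.083 at 3 days (0.836). In NGP it was -0.28 ± 0.079 at 6 days (0.0372) and -0.08 ± 0.080 at 3 days (0.864). Beside these stand the 0 h effects of -0.45 and -1.06 in Kelly and -0.80 and -0.70 in NGP, in the same order. The larger decay difference in Kelly thus stood beside the smaller 0 h effect.

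The Kelly value at 6 days ranged from -0.91 to -0.76 when each of its 8 libraries was left out. It was called under 8 of 9 alternative settings, but with ERCC scaling it was -0.13 and not called (0.293). Taken over 3 h in place of 6 h it was -0.16 and not called, although both treatments were called higher at 3 h. The NGP value was lost without DMSO replicate 1 at 0 h (-0.16), DMSO replicate 2 at 6 h (-0.22) or STM2457 replicate 1 at 6 h (-0.23). It was not called with DESeq2 (-0.30) or with library size alone (-0.25), and turned to 0.15 with ERCC scaling and 0.11 over 3 h, neither called.

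IRS2 was lost faster than the typical gene in every comparison. In Kelly in DMSO it went from 39.9 and 40.5 CPM at 0 h to 18.9 and 6.54 at 6 h at 3 days, and from 35.4 and 42.4 to 10.9 and 13.9 at 6 days. The changes were -1.66 ± 0.291 and -1.65 ± 0.290 in DMSO and -2.11 ± 0.293 and -2.25 ± 0.296 in STM2457. The first of these moved to -2.62 without replicate 1 at 6 h and to -1.09 without replicate 2, and it was called either way. Its 6 h libraries differed the most among these IRS2 groups.

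In NGP IRS2 went from 55.2 and 48.6 CPM to 14.1 and 15.5 in DMSO at 3 days, and from 51.2 and 53.9 to 17.1 and 19.9 in STM2457. At 6 days it went from 81.5 and 108 to 22.0 and 21.1 in DMSO and from 47.6 and 45.3 to 22.0 and 19.1 in STM2457. The changes were -1.81 ± 0.205 and -1.51 ± 0.20 at 3 days, and -2.13 ± 0.20 and -1.17 ± 0.20 at 6 days. The treatments were thus apart at 0 h and together at 6 h at 6 days. The IRS2 decay difference there was 0.96 ± 0.278 (adjusted p = 0.0405), beside the 0 h effect of -1.02 from the same libraries. It was lost without DMSO replicate 2 at 0 h (0.75), STM2457 replicate 1 (1.00) or 2 (0.92) at 0 h, DMSO replicate 2 (0.93) or STM2457 replicate 1 (0.85) at 6 h, and with limma-voom (0.94, 0.0943). Over 3 h it was 0.04.

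IRS1, the other substrate, had negative values in all 8 comparisons and was called lower in 6, from -1.56 ± 0.339 (NGP in DMSO at 3 days) to -0.75 ± 0.290 (Kelly in STM2457 at 3 days). The other 2 values were -0.59 ± 0.291 in Kelly in DMSO at 3 days and -0.72 ± 0.325 in NGP in STM2457 at 6 days. Of the 6 calls, 4 were lost without at least 1 library. Those in Kelly in STM2457 at 3 days and in DMSO at 6 days were lost without any 1 of their 4 libraries (values from -0.89 to -0.60 and from -0.87 to -0.71). In NGP the call in STM2457 at 3 days was lost without replicate 1 at 6 h (-0.61, and -1.61 without replicate 2, which kept it), and that in DMSO at 6 days without replicate 2 at 0 h (-0.84) or replicate 1 at 6 h (-0.63).

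IGFBP2 rose relative to the typical gene by 0.60 ± 0.080 (Kelly in STM2457 at 6 days) to 0.84 ± 0.073 (NGP in STM2457 at 3 days). In Kelly in DMSO at 6 days, for example, it went from 291 and 285 CPM to 497 and 526. IGFBP4 was called higher in 4 comparisons: Kelly in DMSO at 3 days (0.72 ± 0.154) and 6 days (0.96 ± 0.154), Kelly in STM2457 at 6 days (0.76 ± 0.154) and NGP in DMSO at 6 days (0.56 ± 0.152). In the other 4 it was between 0.08 and 0.31. IGFBP5 was not called in any comparison, with changes from -0.28 to 0.22. IGFBP3 was called once, lower in NGP in DMSO at 6 days (-1.29 ± 0.358, from 6.62 and 4.64 to 1.54 and 3.26 CPM). That call was lost without replicate 1 at 6 h (-0.79), with DESeq2 (-1.21), with limma-voom (-1.42) and with a fit on the same duration (-1.24).

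Of the receptors, IGF1R was called higher in Kelly in STM2457 at 3 days (0.40 ± 0.098), and also, at 6 days, in both NGP treatments (0.22 ± 0.074 in DMSO, 0.22 ± 0.075 in STM2457), directions that turned under ERCC scaling (-0.44, -0.84 and -0.41). Both IGF1R calls in NGP were lost with library size alone (0.02 and 0.05), the first without any 1 of its 4 libraries (0.20 to 0.23) and the second without any but STM2457 replicate 2 at 6 h (0.17 to 0.24 where lost). IGF2R was called higher in Kelly in STM2457 at 6 days (0.35 ± 0.105), from 143 and 130 to 187 and 161 CPM. That was lost without replicate 2 at 0 h (0.29), without replicate 1 at 6 h (0.24) and with library size alone (0.22). INSR was not called, with NGP values from -0.17 to 0.07. In Kelly in STM2457 at 6 days INSR had 2 and 0 fragments at 0 h and 59 and 23 at 6 h, which edgeR did not call (adjusted p = 0.102) and DESeq2 (0.0466) and limma-voom (0.0264) did. In DMSO the same course went from 8 and 0 to 1 and 63, so replicates of one group differed as much.

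**Figure D5:**
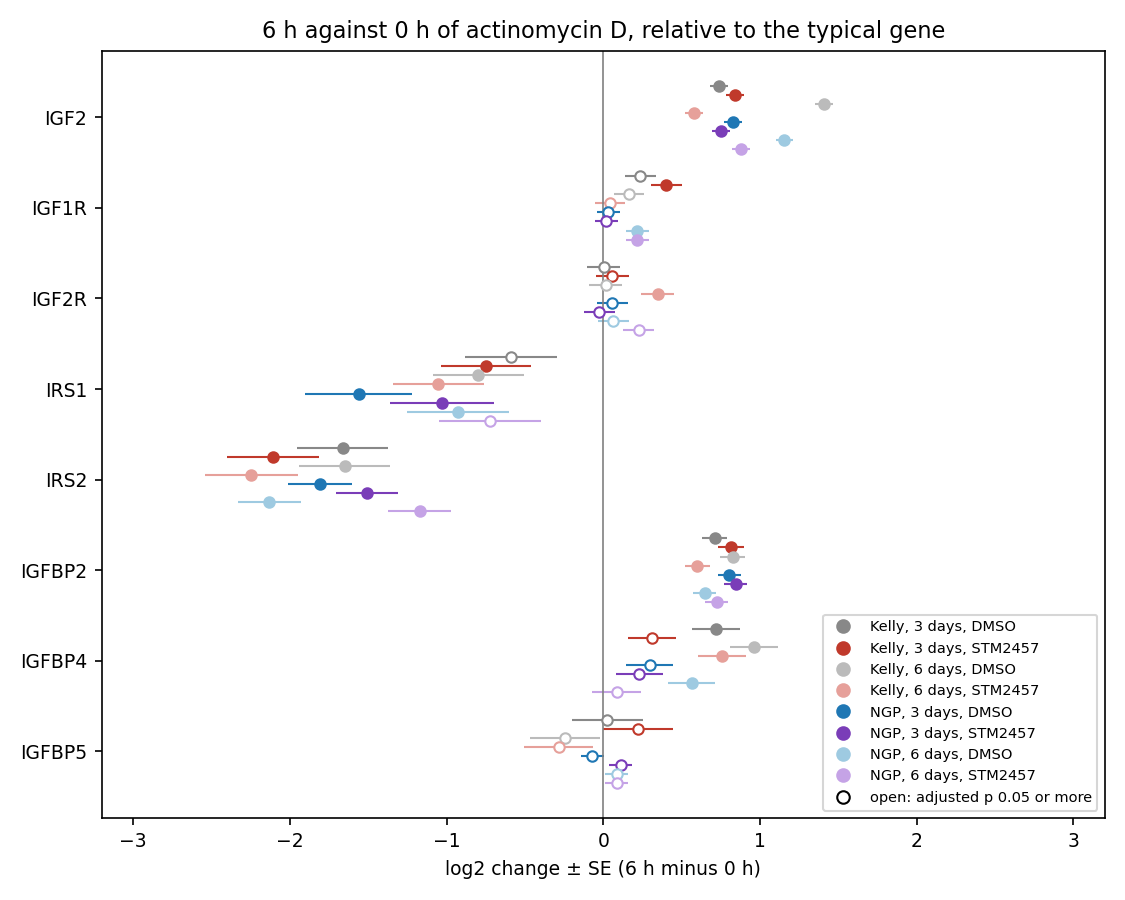
Log2 change from 0 to 6 h of actinomycin D ± SE for 8 of the genes, with 1 colour per line, duration and treatment. Filled points passed an adjusted p of 0.05. On the TMM scale IGF2 and IGFBP2 are filled to the right in all 8 comparisons and IRS2 to the left; with ERCC scaling IGF2 passed in 2 of 8. INSR and IGFBP3, which had few fragments in some groups, are left out.

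In Kelly at 3 days 3 members were called higher and 1 lower in DMSO, where 14.4% and 15.6% of all genes were, and 3 and 2 in STM2457, where 12.8% and 14% were. In Kelly at 6 days 3 were higher and 2 lower in DMSO (13.2% and 13.3% of all genes), and 4 and 2 in STM2457 (12.4% and 14%). In NGP at 3 days 2 were higher and 2 lower in DMSO (19% and 18.4%), and 2 and 2 in STM2457 (16.6% and 15.9%). In NGP at 6 days 4 were higher and 3 lower in DMSO (18% and 18.7%), and 3 and 1 in STM2457 (15.7% and 16.4%). The median over the 10 lay between 0.04 and 0.46, beside -0.05 to 0.09 for all genes.

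With ERCC scaling the split changed, since the typical gene itself fell by 0.34 to 1.18 over 6 h on that scale. Per comparison, 5265 to 10389 of the 16759 genes tested in Kelly were called on it, and 6919 to 9876 of 14661 in NGP. In Kelly at 3 days the members higher and lower were then 2 and 3 in DMSO and 0 and 6 in STM2457, and at 6 days they were 0 and 6 in DMSO and 0 and 4 in STM2457. In NGP at 3 days they were 0 and 7 in DMSO and 1 and 8 in STM2457, and at 6 days 0 and 9 in DMSO and 1 and 8 in STM2457. IGF2 was then between -0.00447 and 0.30 and called higher in Kelly in DMSO at 3 days (0.30) and in NGP in STM2457 at 6 days (0.25). IGFBP2 was between -0.45 and 0.28, and was called higher in Kelly in DMSO (0.28) and NGP in STM2457 (0.19) at 3 days and lower in DMSO at 6 days in both lines (-0.45 in Kelly and -0.41 in NGP). With library size alone the split was 3 and 2 (Kelly, DMSO, 3 days), 3 and 2 (Kelly, STM2457, 6 days), 2 and 4 (NGP, DMSO, 3 days), 3 and 4 (NGP, DMSO, 6 days) and 2 and 2 (NGP, STM2457, 6 days), and with RLE size factors 4 and 1 (Kelly, DMSO, 3 days). With ERCC scaling IRS2 was lower still, from -3.18 to -1.80, and was called in all 8.

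For the decay difference 0 members were called in Kelly at 3 days, where 0.221% of all genes were, and 1 at 6 days, where 0.424% were. In NGP 0 were called at 3 days, against 0.703% of all genes, and 2 at 6 days, against 2.54%. In both comparisons at 3 days 0 members had an edgeR p under 0.05 before adjustment, and neither DESeq2 nor limma-voom called any (0 each). With ERCC scaling the members higher and lower were 0 and 2 in Kelly at 3 days, 3 and 0 at 6 days, and 6 and 0 in NGP at 6 days. On that scale 2418 and 5033 of the 16759 genes tested in Kelly were called, and 2592 of 14661 in NGP at 6 days. The typical gene moved by -0.37 and 0.70 in Kelly and by 0.41 in NGP at 6 days. With library size alone the members higher and lower were 1 and 0 in NGP at 6 days. Of the 42 partners 0 were called in Kelly at either duration, IGF2BP1 was called in NGP at 3 days (-0.31 ± 0.074), and STC2 (1.81 ± 0.277) and EIF4EBP1 (0.72 ± 0.118) in NGP at 6 days, again beside 0 h effects from the same libraries; these 3 are named after their values were seen. Over 6 h of actinomycin D 7 to 9 of the partners were called higher and 9 to 12 lower in each of the 8 comparisons, where 12.4% to 19% of all genes were higher and 13.3% to 18.7% lower.

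Among the 14313 genes tested in both lines, those whose group means followed IGF2 most closely over the 12 groups of each line were DLK1, RPS13 and PDK1. The smaller of the Pearson r values in the 2 lines was 0.933 for DLK1, 0.923 for RPS13 and 0.919 for PDK1. DLK1 encodes a transmembrane protein of the NOTCH ligand family and is also imprinted. It was called lower under STM2457 at 0 h in all 4 comparisons. Its differences were -0.55 (3 days) and -0.34 (6 days) for Kelly, then -0.65 and -0.53 for NGP. RPS13 was called lower only in Kelly at 6 days (-0.41) and NGP at 3 days (-0.30), and PDK1 was not called in any. The 12 groups include these 0 h groups, so a like STM2457 effect is partly built into the choice of these genes. For IGF1R the closest were AC040160.1 (0.863), SPOCK1 (0.835) and SORBS3 (0.832). The groups share their libraries' scaling and the actinomycin D course, so these values describe likeness only.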

How the data were processed

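Poly(A) RNA-seq fragments per gene were deposited as raw counts by the authors, 1 table per library, made with featureCounts 1.5.3 per the file headers, on protein-coding genes of GENCODE 33 (GRCh38) with 92 ERCC spike-in sequences. FastQC 0.11.5, Trimmomatic 0.36 and HISAT2 2.1.0 are named in the submitters' processing notes. The headers name no option for overlapping genes, strand or multi-mapping reads, so fragments in exons that IGF2 shares with other names, or that align equally well elsewhere, may be missing from its count.

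Library totals were 11139550 to 21942238 fragments in genes, 3.22% to 7.38% of them mitochondrial, and spike-ins took 0.265% to 0.671% of all fragments on genes and spike-ins. Samples were grouped by line, treatment, duration and hours of actinomycin D from the labels (24 groups of 2). Genes were kept by filterByExpr (minimum count 10, total 15), libraries were scaled by TMM, and edgeR 4.0.16 (R 4.3.3) quasi-likelihood tests were run per line over its 24 libraries, and over all 48 for comparisons between lines. P-values were adjusted by Benjamini-Hochberg over all genes tested. The SE is the size of the log2 value divided by the square root of F. Ratios of summed fragments have exact 95% intervals that cover counting error only.

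Alternatives were RLE size factors, library size alone, ERCC scaling, no filter, DESeq2 1.42.0, limma-voom (limma 3.58.1), a replicate block, 3 h in place of 6 h, smaller sets of libraries in the fit, adding the counts of names that overlap IGF2, and leaving out each library. All 10 members are named. Of each role of the pathway list, at most 3 called genes with the largest change are named per comparison of STM2457 with DMSO, and the 3 genes most like IGF2 and IGF1R by the smaller Pearson r. Some called genes of that list are not reported here. The members and lists were chosen with earlier results of these data known. Sequences are from the GRCh38 reference.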

Additional observations from a re-analysis of the deposited data

Results flagged for a closer look

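The STM2457 effect at 0 h differed between durations or lines, by a test of the difference itself, for 5 member values. For IGF2 in Kelly the effect at 6 days less that at 3 days was 0.62 ± 0.083 (edgeR adjusted p = 7.5e-09), and all 4 STM2457 libraries lay below the DMSO libraries of their duration. It was -0.04 with ERCC scaling, over which the typical gene moved by -0.62 in the same comparison. The part of this shift in the IGF2 value was not tested.

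In NGP the same difference was -1.04 ± 0.271 for IRS2 (0.0127), -1.55 ± 0.432 for IGFBP3 (0.0259) and 0.40 ± 0.105 for IGFBP5 (0.0150). DMSO levels also differed between the durations: IRS2 was at 55.2 and 48.6 CPM at 3 days and 81.5 and 108 at 6 days, IGFBP3 at 15.7 and 23.1 and then 6.62 and 4.64, and IGFBP5 at 301 and 304 and then 388 and 484. Between the lines, the 3-day effect on IGFBP5 differed by -0.97 ± 0.174 (NGP less Kelly, 0.00114), and limma-voom did not call it.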

How the results depend on the processing

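A value kept its call where it stayed called in the same direction, or stayed not called with either sign. Of 220 member values, 217 kept their call with a replicate block, 218 with RLE size factors and 213 without a filter. With library size alone 210 did, with limma-voom 209, with DESeq2 207 and with ERCC scaling 137. Of 1200 values with 1 library left out 1132 did, with 42 calls lost, 26 gained and none reversed. Among values not called, the sign changed in 22 with library size alone, in 29 with ERCC scaling and in 0 to 4 with the other settings named. With 1 library left out it changed in 114 of the 1200. Same-numbered replicates of different groups deviated with correlations from -0.0366 to 0.0987 over genes. No shared deviation by number was thus seen, which does not show whether they shared a culture or a day. The replicate block gained 3 calls. Under STM2457 in NGP at 6 days they were IGF2R (-0.29, adjusted p = 0.0447) and IGFBP5 (-0.21, 0.0453). The other was the STM2457 effect on IGF2 in NGP less that in Kelly at 6 days (-0.34, 0.0433).

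Only the larger changes in the counts of members called are listed here, and the cause was not tested. Smaller ones are left out, such as 7 to 9 for the actinomycin D change in NGP in DMSO at 6 days with ERCC scaling. For the STM2457 effect the counts became 5 (Kelly, 3 days) and 4 (NGP, 6 days) with ERCC scaling, 1 (Kelly, 6 days) with limma-voom, and 4 (NGP, 6 days) with DESeq2 and with the replicate block. Over 3 h they became 3 (Kelly, STM2457, 3 days) and 4 (NGP, DMSO, 6 days) for the actinomycin D change, and 0 for the decay difference at 6 days in both lines. With ERCC scaling the actinomycin D counts became 7 (DMSO) and 9 (STM2457) in NGP at 3 days and 9 (STM2457) at 6 days, and the decay counts 2 and 3 in Kelly and 6 in NGP at 6 days. The last was 1 with DESeq2, library size alone or limma-voom. For the STM2457 effect in NGP less that in Kelly, counts became 2 and 3 (3 and 6 days) with libraries at 0 h only. They became 0 and 1 with limma-voom, 3 and 3 without a filter, and 1 at 6 days with the replicate block. The Kelly duration difference became 5 with ERCC scaling. With 1 library left out, counts also changed for STM2457 (Kelly, 6 days), actinomycin D (NGP, DMSO, 6 days) and decay (NGP, 6 days). They changed as well for the STM2457 effect in NGP less that in Kelly (3 and 6 days) and for the NGP duration difference.

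Values reversed with ERCC scaling as follows. STM2457 effect: IGFBP2 0.23 (Kelly, 3 days). Actinomycin D, Kelly, 3 days: IGF2R -0.43 in DMSO, and IGF2 -0.00447, IGF1R -0.44, IGF2R -0.78, IGFBP2 -0.0283, IGFBP4 -0.53 and IGFBP5 -0.62 in STM2457. Kelly, 6 days: IGF1R -1.11, IGF2R -1.26, IGFBP2 -0.45 and IGFBP4 -0.32 in DMSO, and IGF1R -0.53 and IGF2R -0.23 in STM2457. NGP, 3 days: IGF1R -0.77, IGF2R -0.74, INSR -0.73 and IGFBP4 -0.50 in DMSO, and IGF1R -0.64, INSR -0.58, IGFBP4 -0.43 and IGFBP5 -0.54 in STM2457. NGP, 6 days: IGF1R -0.84, IGF2R -0.99, IGFBP2 -0.41, IGFBP4 -0.49 and IGFBP5 -0.96 in DMSO, and IGF1R -0.41, IGF2R -0.40, INSR -0.56, IGFBP4 -0.54 and IGFBP5 -0.54 in STM2457. Decay difference: IGF2 -0.31 (Kelly, 3 days), IGF1R 0.57 and IGFBP2 0.47 (Kelly, 6 days), and IGF2 0.15 and IGFBP5 0.42 (NGP, 6 days). NGP less Kelly, 3 days: IGF2R 0.15 and IGFBP2 0.38. Kelly duration: IGF2 -0.0382, IGF1R -0.42 and IGFBP2 -0.43. IGF1R in NGP in DMSO at 3 days was also reversed with library size alone (-0.22), and the NGP decay difference of IGF2 at 6 days over 3 h (0.11).

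Depth limits INSR and IGFBP3 in Kelly, where libraries held at most 63 and 48 fragments of them. With 2 libraries a group, a call can rest on 1 library.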
